A study of Mus musculus with 15 samples.

Results

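EMPs that lost *Ezh2* through *Tie2*-Cre were set directly against EMPs that lost it through *Vav*-iCre. Members were chosen by their labels: the 5 libraries titled Tie2-Ezh2-KO and the 5 titled Vav-Ezh2-KO, which are 10 of the 15 RNA-seq libraries of the series. Erythro-myeloid progenitors (EMPs) were sorted from E10.5 YS of C57BL/6 mice, and each library came from an individual YS. Tie2-Ezh2-KO embryos were *Ezh2*fl/fl with Tie2-CreTg/+, and Vav-Ezh2-KO embryos were *Ezh2*fl/fl with Vav-CreTg/+. The other 5 libraries, 3 Tie2-Ezh2-WT and 2 Vav-Ezh2-WT, carried the floxed alleles without Cre and did not enter the main test. The comparison asks how the transcriptome of *Ezh2*-deleted EMPs depends on whether recombination began in endothelium or as hematopoietic cells emerged.

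*Ezh2* encodes the main catalytic subunit of Polycomb repressive complex 2 (PRC2), which trimethylates histone H3 at lysine 27 and keeps developmental genes silent. EMPs arise in the YS from hemogenic endothelium (HE) by endothelial-to-hematopoietic transition (EHT) and give rise to definitive red cells, megakaryocytes, macrophages and granulocytes. *Tie2* is active in endothelium and in some blood cells, whereas *Vav* is active in hematopoietic cells, so the Cre drivers act at different stages and were bred as separate lines. In the direct contrast, the stage of deletion, the Cre transgene and the line cannot be told apart. Values are RPKM, that is reads scaled to transcript length and library depth, and in bulk RNA fewer cells of a type cannot be told apart from less RNA per cell. Sample labels state 500 cells per library, whereas the methods of the study state a smaller number. Reads on genes, recovered from the spacing of low RPKM values, ranged from 14818723 to 26825709 in Tie2-Ezh2-KO and from 11506895 to 28714656 in Vav-Ezh2-KO libraries.

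The targeted gene was examined first. *Ezh2* (chromosome 6, 47530274 to 47595270, GRCm38) was at 27.8, 26.2, 24.8, 29.5 and 26.5 RPKM in replicates 7, 9, 11, 13 and 17 of Tie2-Ezh2-KO. Replicates 1, 9, 10, 26 and 28 of Vav-Ezh2-KO had 33.7, 42.4, 37.8, 38.1 and 34.0 RPKM. Every Tie2-Ezh2-KO library lay below every Vav-Ezh2-KO library, and the knockouts did not overlap. The log2(RPKM + 0.2) difference was -0.46 (standard error 0.11), lower in 5 of 5 Tie2-Ezh2-KO libraries (adjusted p = 0.0269 with limma; two-sided exact permutation test over 252 divisions, p = 0.00794, the smallest that 5 against 5 libraries allow). With limma this call did not hold in 6 of 10 fits with 1 library left out, those without Tie2-Ezh2-KO replicates 7, 11 or 17 or Vav-Ezh2-KO replicates 9, 10 or 26, where the adjusted p was at most 0.0784 (0.0140 to 0.972 over all alternatives). RPKM covers the whole gene and does not separate the deleted exons. The *Ezh2* level therefore does not check the genotype, and the Vav-Ezh2-KO mean of 37.2 ± 3.56 RPKM (SD, n = 5) stood beside 38.0 ± 4.84 RPKM (SD, n = 5) in WT. By line, *Ezh2* averaged 35.5 RPKM in Tie2-Ezh2-WT and 41.7 RPKM in Vav-Ezh2-WT. With each knockout set against the WT of its own line, the difference of effects was -0.22 (adjusted p = 0.972 with limma).

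Of 14120 genes above 0.2 RPKM in at least 1 of the 10 libraries, 495 (3.51%) differed between the knockouts at an adjusted p under 0.05 with limma. Tie2-Ezh2-KO EMPs had the higher level for 372 (2.63% of genes tested) and the lower level for 123 (0.871%). Higher genes thus made up 75.2% of calls, and 63.6%, 334 against 191, after quantile normalization. With 1 library left out the share ran from 65.0% (without Tie2-Ezh2-KO replicate 9) to 80.5% (without Vav-Ezh2-KO replicate 9). At an unadjusted p under 0.05 with limma there were 1488 higher and 854 lower genes. For 739 genes (5.23%) the libraries of the knockouts did not overlap, 503 higher and 236 lower. These p-values measure the spread between the samples at hand. Without Tie2-Ezh2-KO replicate 9, 969 genes were called, and without Vav-Ezh2-KO replicate 28, 320 were.

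Genes called higher had lower levels than genes called lower, with medians of 3.77 and 34.7 RPKM in the group where each was higher. In the group where each was lower, the medians were 0.934 and 14.6 RPKM. The median difference was 1.495 over the higher genes and -0.89 over the lower genes, beside 0.04 over all genes tested. In Vav-Ezh2-KO EMPs, 191 of the 372 higher genes had a mean under 1 RPKM, and 19 were listed at 0 in every library and so passed the filter through Tie2-Ezh2-KO libraries alone. A log2 difference with a pseudocount of 0.2 RPKM understates changes of such genes. Among the 141 called genes with a mean of at least 20 RPKM in the higher group, 69 were higher and 72 were lower.

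**Figure D1:**
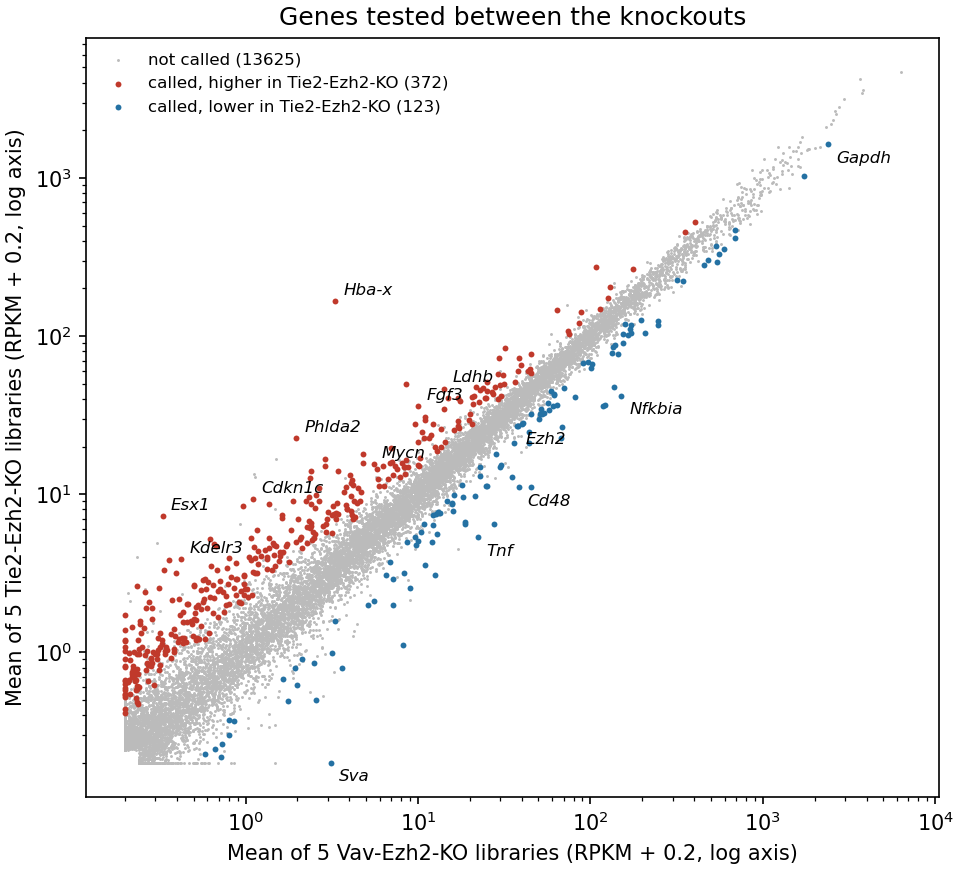
Mean RPKM + 0.2 of each gene tested in 5 Vav-Ezh2-KO libraries (x axis, log scale) against 5 Tie2-Ezh2-KO libraries (y axis, log scale), with called genes in red (372 higher) and blue (123 lower). Red points fan out at the low end of the x axis, whereas blue points run along the well expressed genes.

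The largest rise was that of *Hba-x* (chromosome 11, 32276600 to 32278116), the zeta-like globin of primitive red cells. Its RPKM values, in the order of replicates given above, were 38.4, 305, 339, 32.9 and 117 with *Tie2*-Cre and 0.708, 8.51, 1.48, 4.06 and 0.697 with *Vav*-iCre. All Tie2-Ezh2-KO values were high but widely spread, with replicates 9 and 11 highest, and no Vav-Ezh2-KO library reached the lowest of them. The difference was 5.64 (standard error 0.72, higher in 5 of 5 libraries, adjusted p = 0.000422 with limma). *Esx1*, an X-linked homeobox gene of extraembryonic tissue, was at 9.02, 8.96, 6.37, 6.80 and 4.0005 RPKM in the Tie2-Ezh2-KO libraries. Vav-Ezh2-KO libraries had 0, 0.543, 0, 0.109 and 0 RPKM of *Esx1*, so the gene was near silent with *Vav*-iCre and present in every library with *Tie2*-Cre (4.62, standard error 0.38, adjusted p = 3.70e-05 with limma, higher in 5 of 5). *Phlda2*, an imprinted gene that restrains placental growth, was at 20.9, 24.5, 21.5, 29.4 and 16.2 against 0.336, 1.77, 5.15, 0.825 and 0.756 RPKM. Its Tie2-Ezh2-KO libraries were uniform, and the highest Vav-Ezh2-KO library, replicate 10, was still well below them. *Cdkn1c*, an imprinted inhibitor of cyclin-dependent kinases that neighbours *Phlda2* on chromosome 7, was at 12.7, 5.96, 9.80, 8.58 and 8.67 against 0.602, 1.29, 0.978, 1.43 and 0.251 RPKM, again without overlap.

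Among the other named rises were *Kdelr3*, an endoplasmic reticulum retrieval receptor, *Tcf15*, a helix-loop-helix factor of early mesoderm, and *Fgf15*. Their mean RPKM was 3.67 against 0.223 for *Kdelr3*, 5.00 against 0.424 for *Tcf15* and 3.13 against 0.136 for *Fgf15*. *Rln3*, *Crabp2*, which binds retinoic acid, and *Gap43*, a growth cone protein of neurons, completed the 12 largest rises with *Amn* and *Hbq1b*. All 12 had 5 of 5 Tie2-Ezh2-KO libraries above every Vav-Ezh2-KO library, as the rule that named them required. Calls for all 12 were kept in every fit that left out 1 library.

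At 20 RPKM or more, the largest rises besides *Hba-x* and *Phlda2* were those of *Crip2*, *Fgf3*, *Ldhb* and *H2-Ab1*. *Fgf3*, a fibroblast growth factor ligand, was at 55.3, 38.4, 26.4, 26.2 and 32.3 against 10.3, 10.2, 13.4, 9.17 and 5.86 RPKM. Each Tie2-Ezh2-KO library carried more *Fgf3* than any Vav-Ezh2-KO library (1.84, standard error 0.23, adjusted p = 0.000373 with limma, higher in 5 of 5). *Crip2*, a LIM domain protein, averaged 49.4 ± 16.4 against 8.27 ± 5.06 RPKM (SD, n = 5 each). *Ldhb*, which encodes the heart-type lactate dehydrogenase subunit, averaged 46.2 ± 13.0 against 13.99 ± 2.49 RPKM, with Tie2-Ezh2-KO replicate 13 the lowest of its group at 24.3 RPKM. *H2-Ab1*, a chain of MHC class II, averaged 27.7 ± 6.15 against 9.45 ± 2.86 RPKM.

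The largest fall was that of *Sva*, a seminal vesicle antigen gene on chromosome 6 (42038394 to 42042851). *Sva* was listed at 0 in all 5 Tie2-Ezh2-KO libraries and in all 5 WT libraries, and at 3.43, 4.50, 1.37, 3.20 and 2.09 RPKM in the Vav-Ezh2-KO libraries, from 5 to 21 reads each. Only the Vav-Ezh2-KO libraries held reads of it among the 15, so *Sva* passed the filter through the group where it is high alone. Against a floor of 3 counts over the 5 Tie2-Ezh2-KO libraries it was at least 18.8-fold lower there, a bound that covers counting error only, since the cDNA was amplified by PCR.

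The other named falls follow. *Cd48*, a SLAM family surface protein of leukocytes, was at 15.4, 12.8, 3.84, 8.39 and 13.98 against 46.4, 47.7, 35.8, 33.9 and 28.3 RPKM. The groups were clearly apart, with Tie2-Ezh2-KO replicate 11 lowest (-1.92, standard error 0.30, adjusted p = 0.00224 with limma, lower in 5 of 5). *Cd69*, an early activation antigen of leukocytes, averaged 36.4 ± 11.5 against 121 ± 41.8 RPKM, and *Glipr1* averaged 6.24 ± 1.68 against 27.5 ± 9.22 RPKM (SD, n = 5 each). *Clec7a*, the beta-glucan receptor of myeloid cells, ranged from 0 to 3.31 against 4.07 to 11.8 RPKM. *Stap1*, a signalling adaptor, averaged 2.90 against 12.3 RPKM, and *Ly86*, a partner of a Toll-like receptor homologue, averaged 0.600 against 3.43 RPKM. *Csrnp1*, a nuclear early response protein, averaged 0.293 against 1.57 RPKM, and the uncharacterized *1810033B17Rik* 0.302 against 2.36 RPKM. *Gm15915* also fell, from 119 to 35.7 RPKM. Reads of overlapping or antisense transcripts could not be separated for it.

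**Figure D2:**
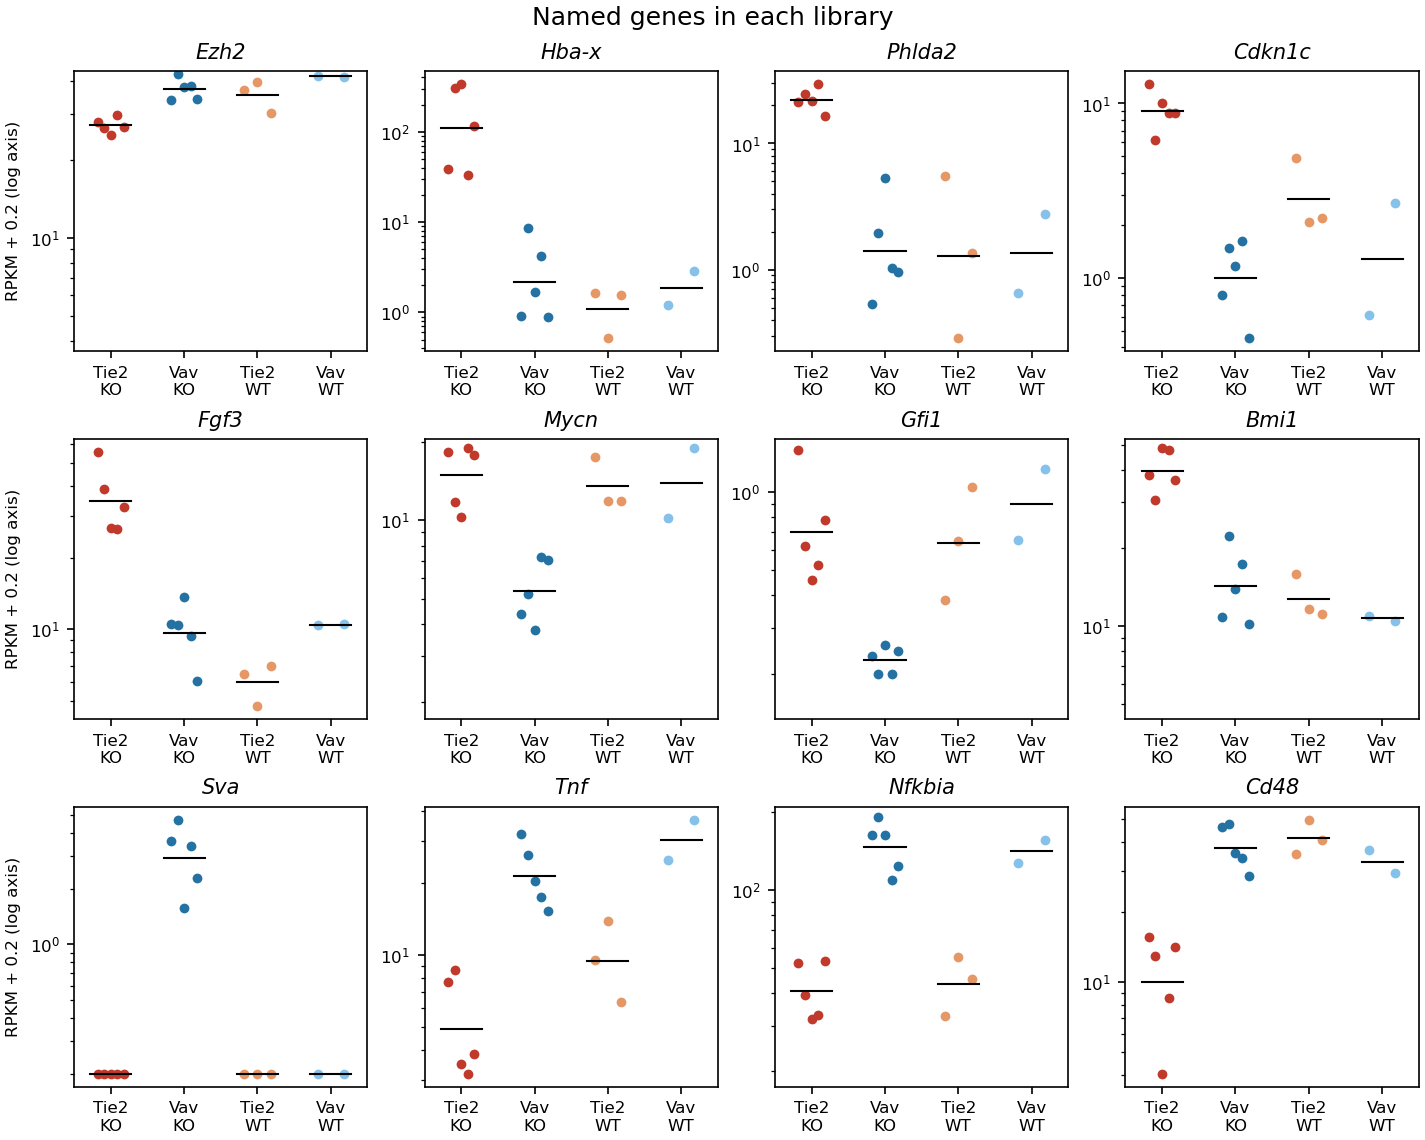
RPKM + 0.2 (log axis) of 12 named genes in each of the 15 libraries, grouped as 5 Tie2-Ezh2-KO, 5 Vav-Ezh2-KO, 3 Tie2-Ezh2-WT and 2 Vav-Ezh2-WT, with a line at the mean of log2 values. *Nfkbia* in Tie2-Ezh2-WT lies with Tie2-Ezh2-KO and in Vav-Ezh2-WT with Vav-Ezh2-KO, whereas *Fgf3* stands high in Tie2-Ezh2-KO alone.

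Gene lists here and below were chosen with earlier results of these data known, so their counts describe the lists and are not independent support. Of 13 inflammatory genes tested, 5 were called lower and 0 higher, with a median difference of -1.35 beside 0.04 over all genes, where 0.871% were called lower. By sign alone 11 of the 13 were lower and 2 higher, and of 11 macrophage markers 10 were lower and 1 higher. The 5 called inflammatory genes were *Tnf*, *Ccl3*, *Cxcl2*, *Nfkbia* and *Ly96*. As a difference of differences 1 of the 13 was called lower, and the list's median was -0.15. That median was -0.83 with a pseudocount of 1 RPKM and -1.87 with limma-voom. With no filter 3 of 14 were called lower, and after quantile normalization 6 of 13 were (limma). *Tnf*, a cytokine of macrophages, was at 7.49, 8.41, 3.29, 2.97 and 3.65 against 31.7, 25.9, 20.1, 17.2 and 15.02 RPKM, with no overlap (-2.13, standard error 0.29, adjusted p = 0.000810 with limma, lower in 5 of 5). *Nfkbia*, the inhibitor that holds NF-κB in the cytoplasm and is itself induced by it, was at 52.0, 39.2, 31.5, 32.7 and 53.3 against 164, 191, 163, 109 and 124 RPKM. The lowest Vav-Ezh2-KO library, replicate 26, lay well above every Tie2-Ezh2-KO library (-1.85, standard error 0.18, adjusted p = 0.000149 with limma, lower in 5 of 5). *Ccl3*, a chemokine, averaged 10.9 ± 6.16 against 45.2 ± 23.0 RPKM (SD, n = 5 each), and its ranges overlapped. The *Ccl3* call was lost without Tie2-Ezh2-KO replicate 13 or Vav-Ezh2-KO replicates 1, 9 or 10, and the *Cxcl2* call without Tie2-Ezh2-KO replicate 11 or Vav-Ezh2-KO replicates 1, 9 or 28 (limma, differences of -1.96 and -1.88 in the main fit, adjusted p at most 0.0598 and 0.0709). With no filter both were lost, and for eBayes without trend *Ccl3* was. *Cxcl2* was also lost with a pseudocount of 0.05 RPKM, with limma-voom and without Tie2-Ezh2-KO replicates 7 and 9 together. The early response genes *Ier3* and *Zfp36* were called lower too, as 2 of 15 genes of a list that responds to tissue dissociation, whose median was -0.30. As a difference of differences that list had 0 called and a median of -0.02. Without Tie2-Ezh2-KO replicates 7 and 9 together, 4 of its genes were called higher and 2 lower (limma).

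The WT lines differed in the same order for some of these genes and not for others. *Tnf* averaged 9.73 RPKM in Tie2-Ezh2-WT and 30.7 RPKM in Vav-Ezh2-WT, and *Nfkbia* averaged 44.2 and 142 RPKM. *Ly96*, a Toll-like receptor 4 cofactor, stood the other way at 5.59 and 3.21 RPKM, and *Zfp36* was at 164 and 187 RPKM. The difference of the knockout effects, each taken against the WT of its own line, was -0.45 for *Tnf*, -0.15 for *Nfkbia*, -0.93 for *Ccl3* and 0.39 for *Cxcl2* (adjusted p = 0.986, 0.990, 0.975 and 0.990 with limma). For *Ly96* it was -2.11 and passed the threshold (adjusted p = 0.0302 with limma, lower in 5 of 5 in the direct contrast). *Nfkbia* was 1 of 2 genes called between the WT lines (difference -1.70, lower in 3 of 3 Tie2-Ezh2-WT libraries, adjusted p = 0.0429 with limma; 871 genes had an unadjusted p under 0.05). The direct contrast of the knockouts thus holds differences, such as that of *Nfkbia*, that the WT libraries of the same lines hold as well. Of the WT libraries, Tie2-Ezh2-WT replicates 4 and 10 were female and the other 3 male, so embryo sex and line cannot be fully told apart between the WT lines.

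Promoters of 52 named genes were scanned, and 4 (7.69%) held a match to the 10-letter κB consensus, near the 7.01% of 27025 RefSeq promoters. Of the 4, those of *Nfkbia*, *Cxcl2* and *Ier3* are shown because these genes were called lower. In the 250 bases before the start, matches on either strand were present for *Nfkbia*, *Cxcl2* and *Ier3* and absent for *Tnf*, *Ccl3* and *Zfp36*, and the table held no promoter of *Ly96*. *Gfi1*, which was called higher, has a match as well, in a window that overlaps exons and is not printed. Capitals mark the match, of which *Cxcl2* has 2 that overlap, and bases inside the first exon are left out. The sequences are from RefSeq on GRCm38.p6, at chr12:55492648-55492897 on the minus strand, chr5:90903649-90903870 on the plus strand and chr17:35821463-35821683 on the plus strand.
Nfkbia: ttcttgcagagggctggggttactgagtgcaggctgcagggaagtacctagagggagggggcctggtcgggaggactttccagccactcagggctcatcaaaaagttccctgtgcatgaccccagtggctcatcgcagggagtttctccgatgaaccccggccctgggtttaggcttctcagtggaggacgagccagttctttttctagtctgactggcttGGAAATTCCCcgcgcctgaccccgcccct
Cxcl2: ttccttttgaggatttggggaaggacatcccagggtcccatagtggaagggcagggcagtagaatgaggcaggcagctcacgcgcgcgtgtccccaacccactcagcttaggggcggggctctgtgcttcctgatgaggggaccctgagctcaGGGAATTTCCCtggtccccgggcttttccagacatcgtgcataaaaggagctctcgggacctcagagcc
Ier3: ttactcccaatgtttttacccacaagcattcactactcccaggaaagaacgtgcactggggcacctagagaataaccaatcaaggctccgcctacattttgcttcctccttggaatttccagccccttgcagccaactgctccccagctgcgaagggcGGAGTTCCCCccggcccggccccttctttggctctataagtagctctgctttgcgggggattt
A match describes letters and no binding.

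Of 12 PRC2 subunits (median -0.08), 2 were lower, where 0.871% of all genes were, *Ezh2* and *Rbbp4*, a histone chaperone shared with other complexes, at 35.8 ± 5.22 against 60.7 ± 8.91 RPKM (SD, n = 5 each). *Rbbp4* was also lower in Tie2-Ezh2-WT (39.9 RPKM) than in Vav-Ezh2-WT (60.6 RPKM). Of 20 PRC1 subunits (median 0.04) 1 was called higher, beside 2.63% of all genes, *Bmi1*, which was at 38.2, 30.5, 48.5, 47.5 and 36.4 against 10.7, 22.1, 13.7, 17.2 and 9.97 RPKM. All Tie2-Ezh2-KO values of *Bmi1* exceeded the highest Vav-Ezh2-KO value (1.48, standard error 0.21, adjusted p = 0.000813 with limma, higher in 5 of 5). Of 11 Hox genes tested 1 passed, *Hoxb13* at 1.30 ± 0.488 against 0.0452 ± 0.101 RPKM, and the list's median was 0.72. That median moved with the pseudocount, to 0.21 with 1 RPKM and 1.75 with 0.05 RPKM, and was 2.61 with limma-voom. Of 8 CDK inhibitors (median 0.27) *Cdkn1c* alone passed. The median was 0.11 with a pseudocount of 1 RPKM, 0.56 with 0.05 RPKM and 0.78 with limma-voom. With a pseudocount of 0.05 RPKM, array weights or all 15 libraries in 4 groups 2 were called higher, and as a difference of differences 0 were (limma).

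Among 5 globin genes tested of 8 in the table, 4 were called higher, beside 2.63% of all genes, with a median of 2.26 (1.28 and 3.75 with pseudocounts of 1 and 0.05 RPKM, 4.02 with limma-voom). *Hbq1a*, whose difference is that median, passed the filter through Tie2-Ezh2-KO libraries alone. With no filter 3 of 7 were called higher and the median was 1.29. *Hbb-bh1*, the beta-like globin of primitive red cells, was at 262, 277, 508, 158 and 165 against 81.4, 108, 57.6, 146 and 148 RPKM, so that the lowest Tie2-Ezh2-KO libraries came close to the highest Vav-Ezh2-KO libraries. Its call (1.29, standard error 0.31, adjusted p = 0.0302 with limma, higher in 5 of 5) was lost without Tie2-Ezh2-KO replicates 7 or 11 or Vav-Ezh2-KO replicates 1, 9 or 10 (limma, adjusted p at most 0.0736). The call was also lost with no filter, for eBayes without trend, after median scaling and without Tie2-Ezh2-KO replicates 7 and 9 together. As a difference of differences *Hbb-bh1* was not called either. *Hbq1b* and *Hbq1a* averaged 3.64 against 0.159 and 1.004 against 0.0393 RPKM. These are near-identical copies, and their reads could have been split, so their separate values are uncertain. Of 17 erythroid genes (median 0.40) *Rhd*, a red cell membrane protein, was the 1 called, higher at 6.82 ± 2.26 against 1.44 ± 1.004 RPKM.

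Of 22 transcription factors of EHT tested, 4 were called higher and 0 lower, beside 2.63% and 0.871% of all genes, with a median of -0.02. Of the 4 calls only that of *Gfi1* held in every fit with 1 library left out. However, *Gfi1* and *Mecom* passed the filter through Tie2-Ezh2-KO libraries alone, so the count of 4 rests in part on genes that the filter admitted as higher. *Gfi1* and *Gfi1b* encode repressors that silence endothelial genes during EHT. *Gfi1* was at 1.25, 0.421, 0.261, 0.324 and 0.580 against 0.0342, 0, 0.0573, 0 and 0.0448 RPKM. Its Vav-Ezh2-KO libraries held at most 4 reads each, while WT averaged 0.593 RPKM, close to Tie2-Ezh2-KO. *Gfi1b*, at 267 ± 55.2 against 177 ± 14.9 RPKM, was far more abundant, and its call was lost without Tie2-Ezh2-KO replicates 7 or 11 or Vav-Ezh2-KO replicates 1, 9, 10 or 28 (difference 0.57 in the main fit, adjusted p at most 0.0833 with limma). The *Gfi1b* call was also lost with no filter, for eBayes without trend, after median scaling and without Tie2-Ezh2-KO replicates 7 and 9 together. *Hlf* and *Mecom*, regulators of stem cells, were below 2 RPKM in every library and overlapped between groups. Without Tie2-Ezh2-KO replicates 7 or 13 or Vav-Ezh2-KO replicates 1, 9 or 10 neither was called (main differences 1.64 and 1.29, adjusted p at most 0.0647 and 0.0654 with limma), and *Mecom* was also lost without Tie2-Ezh2-KO replicate 11 or Vav-Ezh2-KO replicate 28. *Runx1*, the factor that EHT requires, was at 8.54 against 9.67 RPKM and was not called.

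Of 11 genes of the Lin28b axis and fetal stage (median 0.25), 3 were called higher, beside 2.63% of all genes. *Mycn*, a Myc family factor, was at 18.1, 11.5, 10.1, 18.8 and 17.7 against 4.17, 5.02, 3.59, 7.03 and 6.83 RPKM. Here the Vav-Ezh2-KO libraries were the ones that stood low, since WT averaged 13.9 ± 3.88 RPKM (SD, n = 5). The imprinted RNA *H19* (2.82 against 0.779 RPKM, WT 2.009) showed the same order, and *Igf2bp2*, an RNA-binding protein, was at 45.6 against 22.7 RPKM. *Lin28b* itself was at 14.7 against 11.4 RPKM and was not called.

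For the counts of the next lists, 2.63% of all genes were called higher and 0.871% lower. *Wnt5b* was the 1 of 5 Wnt ligands and secretion genes (median 0.42) called, listed at 0 in all Vav-Ezh2-KO libraries and, against a floor of 3 counts over those 5 libraries, at least 19.3-fold higher in Tie2-Ezh2-KO, from 7 to 13 reads each. That bound too covers counting error only, and the gene passed the filter through Tie2-Ezh2-KO libraries alone, at 0.307, 0.222, 0.203, 0.155 and 0.164 RPKM. Its call was lost without Tie2-Ezh2-KO replicate 7 or any 1 Vav-Ezh2-KO library (main difference 1.02, adjusted p at most 0.0597 with limma). The call was also lost with a pseudocount of 1 RPKM, after quantile or median scaling and without Tie2-Ezh2-KO replicates 7 and 9 together. The median of the Wnt ligand list was 0.13 with a pseudocount of 1 RPKM, 0.84 with 0.05 RPKM and 1.75 with limma-voom. *Psmb8*, an immunoproteasome subunit, was the 1 of 16 genes of MHC class I presentation (median 0.10) called, at 72.0 ± 8.79 against 38.4 ± 9.89 RPKM (SD, n = 5 each). Of 7 SLAM genes *Cd48* alone passed, and the list's median was -0.76. That median was -0.24 with a pseudocount of 1 RPKM, -1.36 with 0.05 RPKM and -1.45 with limma-voom. After quantile or median scaling 2 SLAM genes were called lower (limma). The neutrophil granule list (median -0.10) had 2 of 10 lower, *Ms4a3* and *Igsf6*, both membrane proteins of myeloid cells rather than granule contents. Both were lost without Tie2-Ezh2-KO replicate 13 or Vav-Ezh2-KO replicates 1, 9 or 28, *Ms4a3* also without Tie2-Ezh2-KO replicate 11 or Vav-Ezh2-KO replicates 10 or 26, and *Igsf6* without Tie2-Ezh2-KO replicate 7 (main differences -1.79 and -1.28, adjusted p at most 0.0906 and 0.0734 with limma). With no filter and for eBayes without trend both were lost as well, and *Igsf6* also without Tie2-Ezh2-KO replicates 7 and 9 together. Of 20 glycolysis genes (median -0.06) *Ldhb* rose and *Gapdh* fell, at 1641 ± 307 against 2393 ± 140 RPKM, and *Gapdh* stood in the same order in Tie2-Ezh2-WT (1752 RPKM) and Vav-Ezh2-WT (2531 RPKM). The *Gapdh* call was lost without Tie2-Ezh2-KO replicates 11 or 13 or Vav-Ezh2-KO replicates 1, 9, 26 or 28 (main difference -0.56, adjusted p at most 0.0698 with limma). It was also lost after quantile or median scaling, with no filter and for eBayes without trend. Of 20 S phase and 20 G2/M genes (medians -0.01 and 0.14) 0 were called with limma, and at an unadjusted p under 0.05 1 and 0 were.

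Gene sets that the study used were counted in the same fit, where 2.63% of all genes were higher and 0.871% lower. The EC set had 19 higher and 8 lower of 135 (median 0.09), and the HE set 8 and 2 of 117 (median 0.26). The hematopoietic set had 10 higher and 1 lower of 123 (median 0.05), and the Wnt signalling set 4 higher and 0 lower of 32 (median 0.18). The 4 Wnt set calls, *Wnt5b*, *Tcf7*, *Gnai1* and *Nkd1*, were each lost in at least 6 of the 10 fits with 1 library left out. Over the other alternatives that count was 0 (above 1 RPKM in at least 5 libraries, or as a difference of differences) to 5 (array weights, or 15 libraries in 4 groups). The EMP signature had 5 higher and 6 lower of 87 (median -0.18), counts that became 2 and 1 for eBayes without trend, 2 and 4 with no filter, 3 and 3 after median scaling, and 1 and 0 as a difference of differences. As a difference of differences the EC set had 2 higher and 0 lower, and the HE and hematopoietic sets had 0 called (limma). *Alpl*, alkaline phosphatase of the EC set, was at 3.12 ± 0.443 against 0.487 ± 0.627 RPKM, and *Ptrf*, a caveolar coat protein of the HE set, at 5.76 ± 2.37 against 1.62 ± 0.525 RPKM (SD, n = 5 each).

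Markers checked the sorted population. The 7 genes of an EMP marker list summed to 267 to 324 RPKM in Tie2-Ezh2-KO and 266 to 362 RPKM in Vav-Ezh2-KO libraries. The list was led by *Cd34* in Tie2-Ezh2-KO and by *Fcgr3* in Vav-Ezh2-KO. *Cd34*, *Ptprc* and *Cd93* were not part of the sorting gate that the study states, so the sum is not that of gate genes alone. The list had a median of 0.01 and 0 called, 2 having an unadjusted p under 0.05 with limma. Of 6 markers the gate excludes, 3 were in the table, with 0 called, a median of 0.17 and 0 at an unadjusted p under 0.05 with limma, and their sum, led by *Ly6a*, was at most 1.52 RPKM in any knockout library. Of 16 visceral endoderm markers 13 were tested, and all 13 were higher, beside 55.7% of all genes, with a list median of 1.29, but 1 was called, *Amn*, an endocytic receptor subunit. *Amn* passed the filter through Tie2-Ezh2-KO libraries alone, which set its sign in that count. With no filter 1 of 16 was called higher and the median was 1.22. The median was 0.61 as a difference of differences and 0.44 without Tie2-Ezh2-KO replicates 7 and 9. Their sum was 379, 47.7, 31.8, 29.6 and 43.4 against 22.6, 22.4, 19.7, 26.7 and 17.8 RPKM, led on average by *Trf* (means 27.1 against 12.9 RPKM). Given that mean, markers other than *Trf* made up most of the 379 RPKM of Tie2-Ezh2-KO replicate 7. Tie2-Ezh2-KO replicate 7 stood far above the rest, as did Tie2-Ezh2-WT replicate 4 at 269 RPKM, while *Amn* was at 4.66, 1.67, 1.52, 2.08 and 2.21 RPKM with *Tie2*-Cre and 0 in 4 of 5 Vav-Ezh2-KO libraries. Without Tie2-Ezh2-KO replicate 7, 345 genes were called and *Amn* was still among them. With Tie2-Ezh2-KO replicates 7 and 9 both left out, a choice made after seeing the data, 807 were.

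The counts of these markers stand beside 2.63% higher and 0.871% lower over all genes. Markers of primitive erythroid cells, 6 tested and 2 called higher (*Hba-x* and *Hbb-bh1*), summed to 318, 590, 865, 200 and 291 against 88.5, 130, 65.7, 159 and 157 RPKM. *Slc4a1*, the anion exchanger of red cells, was at 0.0964 against 0 RPKM and was not called. Macrophage markers had 2 of 11 called lower, *Ly86* and *Cd68*, a median of -0.44, and sums of 86.0 to 94.5 against 93.9 to 188 RPKM, led by *Lyz2*, with *C1qa* at 0 throughout. Megakaryocyte markers (sums 203 to 348 against 197 to 353 RPKM, median -0.24), had 1 of 11 lower, *Treml1*. Mast cell and basophil markers, led by *Hdc* in Tie2-Ezh2-KO and by *Cpa3* in Vav-Ezh2-KO (sums 35.6 to 79.2 against 85.8 to 209 RPKM, median -0.07), had 1 of 5 lower, *Cpa3*, with *Mcpt8* at 0. Of 16 endothelial markers 0 were called with limma, while 14 were higher, 8 of them at an unadjusted p under 0.05, and 2 were lower, 1 of them at an unadjusted p under 0.05. After quantile or median scaling 1 was called lower, with a pseudocount of 1 RPKM or without Tie2-Ezh2-KO replicates 7 and 9 together 1 was called higher, and with all 15 libraries in 4 groups 2 were (limma). Their sums, led by *Egfl7*, were 177 to 197 against 149 to 194 RPKM (median 0.48), and *Robo4* was at 0. The 12 mesenchymal markers in the table, led by *Pdgfrb*, summed to 2.49 to 3.21 against 1.49 to 3.09 RPKM. The 7 lymphoid markers in the table, led by *Lck*, summed to 3.27 to 6.404 against 1.15 to 3.31 RPKM. Of these, 7 mesenchymal and 4 lymphoid markers were tested (medians 0.22 and 0.20). Both lists had 0 called with limma and 1 gene each at an unadjusted p under 0.05. Of 5 embryo sex markers (median -0.02) 0 were called with limma and 0 had an unadjusted p under 0.05, and Tie2-Ezh2-KO replicate 11 and Vav-Ezh2-KO replicate 28 were female. The *Cd68* call was lost without Tie2-Ezh2-KO replicates 7, 11 or 17 or Vav-Ezh2-KO replicates 1, 26 or 28, and the *Cpa3* call without Vav-Ezh2-KO replicates 1 or 9 (main differences -0.71 and -1.61, adjusted p at most 0.0940 and 0.0543 with limma). With no filter and for eBayes without trend both were lost, and *Cd68* also with limma-voom and without Tie2-Ezh2-KO replicates 7 and 9 together. The part of any of these cells in the gene differences was not tested.

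WT libraries lay close to Vav-Ezh2-KO for most called genes. Their position on the log2 scale, with 0 at the Vav-Ezh2-KO mean and 1 at the Tie2-Ezh2-KO mean, had a median of 0.18 over the 495 genes, and 410 lay under 0.5. Over higher genes the median was 0.08 and over lower genes 0.40. For the lower genes it depended on the line, at 0.56 with the 3 Tie2-Ezh2-WT and 0.10 with the 2 Vav-Ezh2-WT libraries. In 254 of the 495 genes all Tie2-Ezh2-KO libraries lay apart from all WT libraries. In 23 of the 495 all Vav-Ezh2-KO libraries did, with *Gfi1* and *Sva* among them. Both counts cover only genes chosen for a difference between the knockouts. No share over all genes tested stands beside them, so they do not compare the distances of the knockouts from WT.

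**Figure D3:**
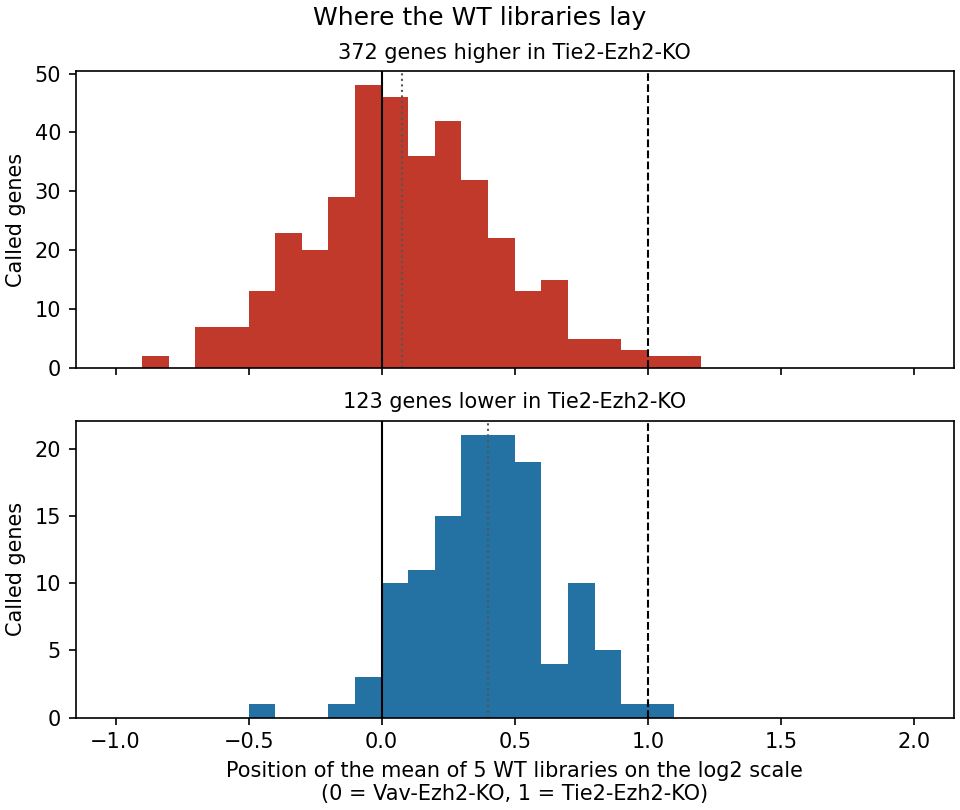
Number of called genes (y axis) by the position of the mean of 5 WT libraries between the Vav-Ezh2-KO mean (0, solid line) and the Tie2-Ezh2-KO mean (1, dashed line) on the log2 scale (x axis), with the median dotted. Higher genes (372, top) center near 0 with a median of 0.08, and lower genes (123, bottom) spread toward the middle with a median of 0.40.

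Tested as a difference of effects over all 15 libraries, each knockout against its own WT, 26 of 14394 genes differed with limma, 23 higher and 3 lower, and 942 had an unadjusted p under 0.05. All 26 were among the 495 genes. Among the named genes they were *Hba-x*, *Esx1*, *Kdelr3*, *Crabp2*, *Fgf3* and *Hoxb13*, which were higher, and *Sva* and *Gm15915*, which were lower. For *Esx1* the difference of effects was 4.31 (adjusted p = 0.0110 with limma), and for *Fgf3* 2.63 (adjusted p = 0.00986 with limma). In the direct contrast both genes were higher in 5 of 5 Tie2-Ezh2-KO libraries. Embryo sex was unevenly spread over the WT libraries that this contrast uses, and its part in these differences was not tested.

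More genes were detected in Tie2-Ezh2-KO EMPs. Above 0.2 RPKM there were 12273, 11958, 11932, 12284 and 12288 genes with *Tie2*-Cre against 11726, 11858, 11587, 11843 and 11650 with *Vav*-iCre. Every Tie2-Ezh2-KO library exceeded every Vav-Ezh2-KO library (means 12147 ± 185 and 11733 ± 118; exact permutation test, two-sided, p = 0.00794). Above 1 RPKM the means were 9869 and 9675 (exact permutation test, p = 0.198).

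Some called genes were neighbours. On chromosome 11, *Rhbdf1*, *Hba-x*, *Hbq1b* and *Hbq1a* (32209585 to 32300873) were all higher, and on chromosome 7 *Fgf3*, *Fgf15* and the cyclin gene *Ccnd1* (144838612 to 144939831) were all higher. The run with the most genes, *Noxa1*, *Nrarp*, *Slc34a3*, *Gm757* and *Rnf208* on chromosome 2 (25085667 to 25244261), was higher too. So were *Tinagl1*, *Serinc2* and *Fabp3* on chromosome 4 and *Arxes2*, *Arxes1* and *Bex2* on chromosome X. The adjacent *Tyrobp*, *Hcst* and *Nfkbid* on chromosome 7 (30413782 to 30428749), of which *Tyrobp* and *Hcst* encode adaptors of immune receptors, were all lower. Within 10 Mb of *Ezh2*, 7 of 119 genes tested were called (5.88%, beside 3.51% of all genes), *Ezh2* itself being 1 of the 7 and *Sva* and *Gimap6* others. Neighbours outside the naming rule were chosen after their values were seen, and the number of such runs that chance gives was not tested.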

How the data were processed

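RNA-seq of 15 libraries was available, of which the 10 knockout libraries entered the test. RPKM for 17454 genes was deposited by the authors, from TopHat 2.0.13 alignments to GRCm38 and featureCounts totals over RefSeq models. RPKM is not corrected for composition. Reads were recovered as whole numbers from the RPKM steps (tolerance 1e-06), with totals of 10407398 to 41025074. Genes were tested with lmFit and eBayes with trend of limma 3.58.1 (R 4.3.3) on log2(RPKM + 0.2), Benjamini-Hochberg over all genes tested, threshold 0.05. The code was tested on simulated data. Single values used two-sided exact permutation tests. Named genes had non-overlapping groups: the 12 largest rises and 8 largest falls, 6 rises and 6 falls at 20 RPKM or more, up to 4 called genes per list whether or not groups overlapped, and *Ezh2*. Members and lists were chosen with earlier results of these data known. The labels do not assign libraries to the 3 experiments, so no batch term was fitted. Alternatives covered pseudocounts, filters, normalization, weights, limma-voom, embryo sex, all 15 libraries and each library left out.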

Additional observations from a re-analysis of the deposited data

Results flagged for a closer look

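Among 132 groups of 5 knockout libraries examined, 14 held a library far from the other 4, and chance flags about 1 in 20 groups. In Tie2-Ezh2-KO, replicate 7 stood apart for the summed visceral endoderm markers (379 RPKM), replicate 13 for *Tcf15* (3.96 RPKM), *Glipr1* (3.45 RPKM) and *Ldhb* (24.3 RPKM), each the lowest of its group, and replicate 17 for *Mecom* (0.102 RPKM, the lowest). In Vav-Ezh2-KO, replicate 1 stood apart for *Igsf6* (29.6 RPKM) and *Igfbp2* (0.133 RPKM). Replicate 9 did for *Rln3* (0.572 RPKM), *Crabp2* (0.302 RPKM) and *Ocln* (0.136 RPKM, the lowest), replicate 10 for *Amn* (0.176 RPKM), *Hbq1a* (0.196 RPKM) and *Hoxb13* (0.226 RPKM), and replicate 26 for *Utf1* (0.225 RPKM). For *Igfbp2*, *Rln3*, *Crabp2*, *Amn*, *Hbq1a*, *Hoxb13* and *Utf1* the other 4 libraries were at 0. In these 7 groups any reads in 1 library are flagged, so the chance rate does not apply to them.

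The effects of the knockouts, each against the WT of its line, differed for 26 genes with limma. For named genes the log2 difference of effects was 6.41 for *Hba-x*, 4.31 for *Esx1*, 4.04 for *Crabp2*, 3.49 for *Kdelr3*, 2.63 for *Fgf3*, 2.63 for *Hoxb13*, -1.90 for *Gm15915* and -3.86 for *Sva*. The Vav line had 2 WT libraries and the Tie2 line 3, which limits the precision of this contrast. Of the WT libraries, 2 of 3 in the Tie2 line and 0 of 2 in the Vav line were female, so embryo sex and line cannot be fully told apart in it.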

How the results depend on the processing

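The count of 495 genes moved beyond 1.5 times with array weights (765), as a difference of differences (26), and with Tie2-Ezh2-KO replicates 7 and 9 left out together (807, chosen after seeing the data). Leaving out 1 library gave 320 (without Vav-Ezh2-KO replicate 28) to 969 (without Tie2-Ezh2-KO replicate 9). The share of higher genes, 75.2%, was 68.5% with genes above 1 RPKM in at least 5 libraries, 82.7% for eBayes without trend, 63.6% after quantile normalization, 69.7% after scaling to a common median, 71.0% with array weights, 71.1% with all 15 libraries in 4 groups, 88.5% as a difference of differences and 66.4% without both replicates. Leaving out 1 library gave 65.0% to 80.5%. The cause was not tested.

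The *Ezh2* difference of -0.46 was -0.46 for eBayes without trend (adjusted p = 0.0695 with limma) and -0.22 as a difference of differences (adjusted p = 0.972 with limma), no longer past the threshold, over a range of 0.0140 to 0.972. Leaving out 1 library gave differences of -0.49 to -0.41. Of the 64 named genes 8 were past the threshold as a difference of differences, where *Cxcl2* turned to 0.39, and 47 were past it in every other alternative that tested them. The 414 more genes detected were 194 more above 1 RPKM (exact permutation test, p = 0.198). All 495 genes kept their direction in each alternative that tested them, except that 484 did as a difference of differences. No paired analysis was possible because each library came from an individual YS and the knockouts were bred as separate lines. Values near 0.2 RPKM rest on few reads, 0.0435 RPKM being 1 read of a 2 kb transcript in the shallowest knockout library.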

Other observations

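The genes here lie outside the naming rule and were chosen after their values were seen. Some genes set the Vav-Ezh2-KO libraries apart from both Tie2-Ezh2-KO and WT. *Dlk1*, an imprinted Notch-like ligand, was at 13.8 ± 4.57 RPKM in Tie2-Ezh2-KO, 2.18 ± 1.37 in Vav-Ezh2-KO and 10.1 ± 4.03 in WT (SD, n = 5 each). *Gimap6*, a GTPase of immune cells, was at 44.5 RPKM in Tie2-Ezh2-KO, 25.1 in Vav-Ezh2-KO, 51.0 in Tie2-Ezh2-WT and 45.3 in Vav-Ezh2-WT libraries.

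Knockout effects also differed for the following 4 genes. *Msx2*, a homeobox gene, was at 1.68, 0.938, 1.44, 0.914 and 1.18 RPKM in Tie2-Ezh2-KO and at most 0.137 RPKM in Vav-Ezh2-KO libraries. It passed the filter through Tie2-Ezh2-KO libraries alone. *Tubb3*, a neuronal tubulin, was at 1.86 to 3.98 against 0.205 to 0.504 RPKM, and *Nrtn*, a ligand of the GDNF family, at 7.72 to 11.5 against 1.02 to 2.89 RPKM. *Tubb3* averaged 0.379 RPKM in Tie2-Ezh2-WT and 1.30 RPKM in Vav-Ezh2-WT, above its Vav-Ezh2-KO mean of 0.367 RPKM. Its difference of effects, 3.82, was thus larger than its direct difference of 2.32. *Nrtn* averaged 1.30 RPKM in Tie2-Ezh2-WT and 1.71 RPKM in Vav-Ezh2-WT. *Ly96* went the other way, at 1.45 to 3.58 against 6.4001 to 7.49 RPKM, with 3.01 and 3.41 RPKM in Vav-Ezh2-WT and 4.78, 5.87 and 6.10 RPKM in Tie2-Ezh2-WT libraries.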
